A study of Mus musculus with 12 samples.

Results

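The cytosolic ribosomal protein genes are the genes that encode the proteins of the large (Rpl, Rplp) and small (Rps, Rpsa) subunits of the ribosome outside mitochondria. They were taken as every symbol in the expression files made of Rpl or Rps with a number and an optional paralog letter or digit, together with Rplp0 to Rplp2 and Rpsa, without symbols that carry -ps. This gave 83 genes of the 24346 symbols in the files, 50 of the large and 33 of the small subunit. Of these, 81 reached an FPKM (a fragment count per kilobase of transcript and per size of the library, so that levels of genes of different length can be compared) of at least 1 in at least 2 libraries and were tested. The exceptions were Rpl10l, listed at 0 in every library, and Rpl39l, with a mean of 0.262 FPKM.

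Ribosomal proteins assemble with ribosomal RNA in the nucleolus into subunits that join on mRNA to make protein, and a cell needs nearly all of them in similar amounts. Their mRNAs are among the most abundant of any growing cell and start with a stretch of pyrimidines, the TOP motif, through which mTOR and Larp1 control their translation and stability. In the myeloid lineage, ribosome production is high in proliferating progenitors and declines as granulocytes mature.

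The libraries came from myeloid-derived suppressor cells (MDSCs), immature myeloid cells that dampen T cell responses, sorted by FACS from orthotopic Hepa 1-6 hepatoma tumors in the livers of wild-type female C57BL/6J mice. Hepa 1-6 is a mouse hepatocellular carcinoma line. Monocytic cells (M-MDSCs) were gated as CD11b+, Ly-6C high and Ly-6G-, and polymorphonuclear cells (PMN-MDSCs) as CD11b+, Ly-6C intermediate and Ly-6G+. The tumor-bearing mice had received vehicle (DMSO, PEG300 and PBS), MS-275 (entinostat) or CXD101, both inhibitors of the histone deacetylases HDAC1, HDAC2 and HDAC3, at equal dose by daily intraperitoneal injection. Each of the 6 combinations of cell population and treatment had 2 libraries, numbered replicate 1 and 2 here. The labels do not say whether they came from separate mice, so p-values measure only the spread between libraries. In sorted bulk RNA, fewer cells of one type and less RNA per cell cannot be told apart.

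Among the ribosomal protein genes, Rps27 needs its sequence shown, because its level in the files depends on a copy that cannot be told from it. Rps27 (GRCm38, chr3:90212522-90213651, minus strand) and the retrocopy Rps27rt (chr9:114982366-114982739, minus strand, annotated as protein coding) have identical coding sequences of 252 bases. The paralog Rps27l (chr9:66946086-66949516, plus strand), which p53 is known to induce, differs from Rps27 at 60 of these bases, for 76.19% identity, and its longest identical stretch is 11 bases. The coding sequences, read from GENCODE transcripts of GRCm38 and printed 5′ to 3′ without the stop codon, follow with the bases of Rps27l that differ from Rps27 in capitals.
Rps27: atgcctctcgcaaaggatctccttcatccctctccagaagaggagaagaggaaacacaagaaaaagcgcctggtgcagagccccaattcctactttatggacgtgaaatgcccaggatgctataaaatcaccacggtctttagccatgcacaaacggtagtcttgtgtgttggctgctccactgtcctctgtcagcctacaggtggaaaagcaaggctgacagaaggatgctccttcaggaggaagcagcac
Rps27l: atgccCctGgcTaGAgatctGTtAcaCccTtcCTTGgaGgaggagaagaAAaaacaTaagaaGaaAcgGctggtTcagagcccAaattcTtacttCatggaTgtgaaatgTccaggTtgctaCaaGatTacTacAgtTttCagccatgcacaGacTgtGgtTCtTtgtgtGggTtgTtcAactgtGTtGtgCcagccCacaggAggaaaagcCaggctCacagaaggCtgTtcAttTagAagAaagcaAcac
A read of 101 bases within the coding sequence could thus not be assigned to Rps27 or Rps27rt, whereas it could be assigned to Rps27l.

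The letters around the transcription start were searched for part of a pyrimidine stretch. Rpl35 has the letters CTTTCC near its start and was called lower under CXD101 in PMN-MDSCs. There, genes with the letters had medians of -0.31 under MS-275 and -0.34 under CXD101, and those without -0.27 and -0.38. The following windows, from 10 bases before to 20 bases after the RefSeq start (GRCm38.p6), are examples and show no link with the response. They set genes with CTTTCC near the start (in capitals) beside Rps2 and Rpl12, which fell strongly in PMN-MDSCs and lack them.
Rpl38, chr11:114668570-114668599, plus strand: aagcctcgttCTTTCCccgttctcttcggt
Rpl28, chr7:4792955-4792984, plus strand: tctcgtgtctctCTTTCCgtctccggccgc
Rps10, chr17:27635225-27635254, minus strand: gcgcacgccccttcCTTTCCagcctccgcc
Rps27, chr3:90213629-90213658, minus strand: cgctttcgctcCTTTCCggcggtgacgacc
Rps2, chr17:24720053-24720082, plus strand: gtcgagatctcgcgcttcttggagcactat
Rpl12, chr2:32961702-32961731, plus strand: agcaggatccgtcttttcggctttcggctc
Promoter windows of 300 bases (250 before to 50 after the start) were found for 62 of the 83 genes. CTTTCC on the coding strand between 15 bases before and 25 after the start was present in 9 of the 62 (14.52%) and in 1.89% of 27025 RefSeq promoters of equal length, and anywhere in the window in 23 (37.1%) and 14.05%. The core letters of ETS factor sites, CCGGAAG on either strand, were present in 25 of the 62 (40.32%) against 9.12% of all promoters, and those of YY1, AAGATGGC on either strand, in 4 (6.45%) against 2.88%. These are matches of letters, not measured sites.

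By the expression of genes with a single transcript, the libraries corresponded to about 8400000 to 10500000 reads in M-MDSCs and 6900000 to 8100000 reads in PMN-MDSCs; this depth was inferred from how far apart the lowest FPKM values lie. A ribosomal protein gene then rested on a median of 8285 to 9824 reads in M-MDSCs and 3798 to 5638 in PMN-MDSCs, so that counting alone gave a coefficient of variation of at most 1.62% for the median gene. The sum of FPKM differed, at 564078 to 596407 in M-MDSCs and 656932 to 860841 in PMN-MDSCs. S100a8 and S100a9, calcium-binding proteins abundant in neutrophils, took 1.78% to 4.28% of it in M-MDSCs, 10.2% and 13.7% in PMN-MDSCs under vehicle and 27.3% to 30.9% in PMN-MDSCs under either inhibitor. Some subset markers separated the populations in the RNA, and others did not. Ccr2 stood at 124 to 147 FPKM in M-MDSCs and 27.5 to 40.7 in PMN-MDSCs. Csf3r stood at 8.75 to 24.9 and 214 to 339. Under vehicle, Csf1r was 123 and 123 FPKM in M-MDSCs and higher in PMN-MDSCs, at 160 and 145. Ly6c2 was 1360 and 1306 FPKM in M-MDSCs and 511 and 455 in PMN-MDSCs under vehicle. It was 2041 to 2447 in treated M-MDSCs and 1418 to 1677 in treated PMN-MDSCs. Ly6g was not analysed here. Markers of hepatocytes and tumor cells (8 genes) summed to at most 8.67 FPKM in any library, those of lymphocytes and NK cells (7) to 3.89 and those of erythroid cells (4) to 0.873.

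Ribosomal protein mRNAs made up a larger share of the transcriptome of M-MDSCs than of PMN-MDSCs, and their share in PMN-MDSCs was lowest under the inhibitors. The 83 genes took 19.8% and 20.2% of the summed FPKM in M-MDSCs under vehicle, 18.9% and 19.6% under MS-275, and 20.01% and 19.6% under CXD101. The share was 11.3% and 10.8% in PMN-MDSCs under vehicle, 6.71% and 7.23% under MS-275, and 6.74% and 6.51% under CXD101. No PMN-MDSC library overlapped an M-MDSC library, and no treated PMN-MDSC library overlapped a vehicle one. With S100a8 and S100a9 left out of the sum, the shares in PMN-MDSCs were 12.6% and 12.5% under vehicle, 9.55% and 9.94% under MS-275, and 9.45% and 9.41% under CXD101. Treated PMN-MDSC libraries still lay below the vehicle ones without those 2 genes, with a smaller gap. The number of ribosomal protein genes above 1000 FPKM ranged from 54 to 59 in M-MDSCs, was 30 and 28 in PMN-MDSCs under vehicle, and ranged from 14 to 18 in treated PMN-MDSCs.

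**Figure D1:**
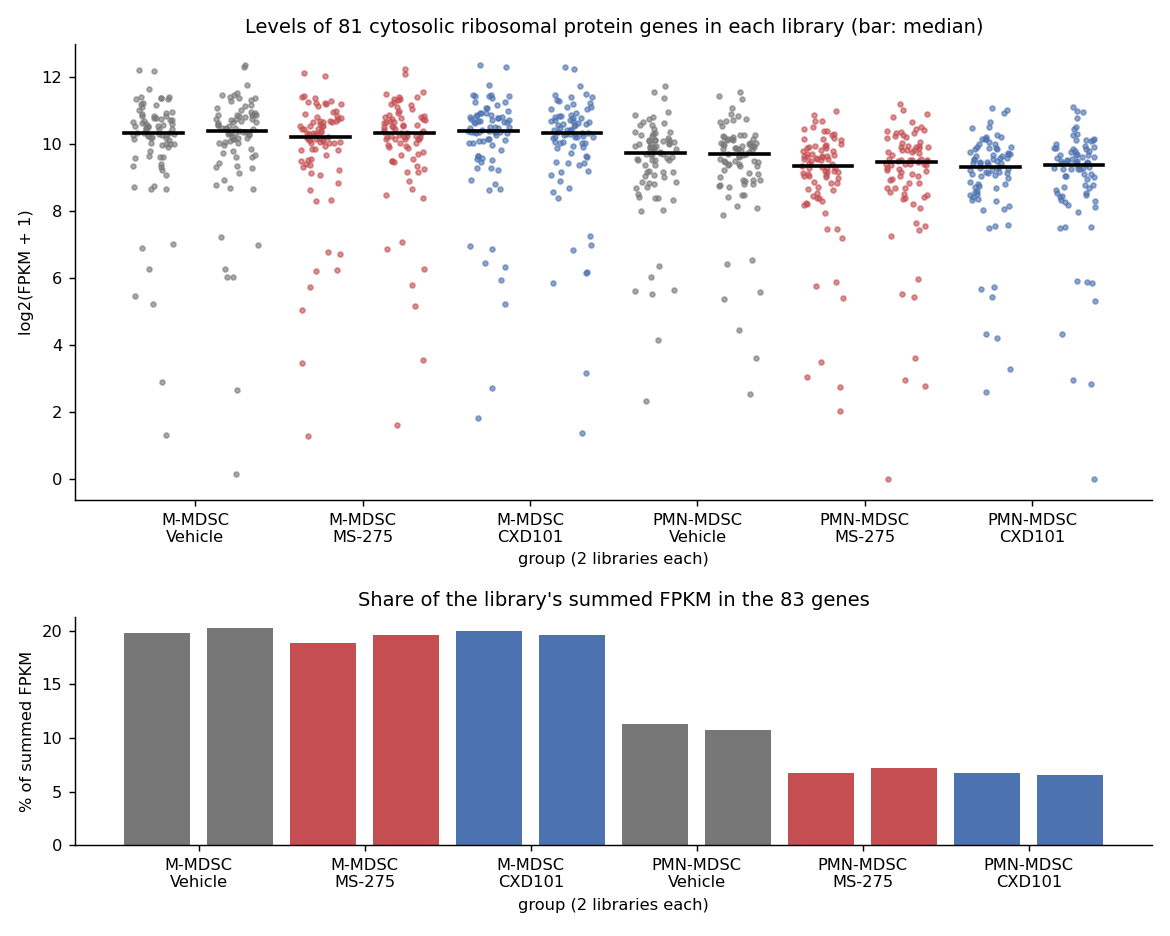
FPKM (log axis) of the ribosomal protein genes in each of the 12 libraries, grouped by cell population and treatment. The median over the 81 tested genes lies between 1188 and 1344 FPKM in the M-MDSC libraries, at 853 and 831 in PMN-MDSCs under vehicle and between 644 and 704 in treated PMN-MDSCs.

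Within a library the genes spanned a wide range although their proteins are needed in similar amounts. The highest means over the 12 libraries belonged to Rpl41, which encodes a very short basic peptide (3683 FPKM), and Rplp1, an acidic stalk protein. Among the tested genes, the paralogs Rpl3l and Rps4l lay lowest, at 0.119 to 6.13 and 5.37 to 16.9 FPKM. The order of the genes was much alike in all groups, with Spearman correlations between group means of 0.928 to 0.995 across the 81 genes, a description only, since genes of one library share its depth and base composition. The ratio of large to small subunit sums ran from 1.24 to 1.28 across the M-MDSC libraries and from 1.16 to 1.22 across those of PMN-MDSCs. These sums hold Rps27, Rpl26, Rpl30 and Rpl34 without the copies described below, so the split of reads between copies enters the ratio. In PMN-MDSCs under vehicle it was 1.22 and 1.16, with Rps27 listed at 335 and 1924 FPKM. Replicates lay close together, with a median ratio between the 2 libraries of a group of 1.03 to 1.09 over the genes and, with 4 genes apart, a largest ratio of 1.24 to 1.48.

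The 4 genes whose replicates differed by more than 2-fold in some group were Rps27, Rpl26, Rpl30 and Rpl3l. Rps27, a zinc finger protein of the small subunit, was listed at 1395 and 931 FPKM in M-MDSCs under vehicle, 74.8 and 840 under MS-275, and 87.9 and 153 under CXD101. In PMN-MDSCs it was listed at 335 and 1924 under vehicle, 748 and 175 under MS-275, and 469 and 57.9 under CXD101. In M-MDSCs both treated groups lay below vehicle and overlapped each other, in PMN-MDSCs all groups overlapped, and replicates differed by up to 11.2-fold. Rps27rt moved the other way, at 383 and 931 FPKM in M-MDSCs under vehicle, 1502 and 842 under MS-275, 1686 and 1579 under CXD101, 1374 and 12.1 in PMN-MDSCs under vehicle, 751 and 1391 under MS-275, and 1072 and 1624 under CXD101. The sum of both stayed between 1499 and 1936 FPKM in all 12 libraries, and its replicates differed by at most 1.13-fold. Of the 101-base windows of the Rps27 transcript, 98.37% also occur in Rps27rt.

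Rps27 was the 1 ribosomal protein gene called lower under CXD101 in M-MDSCs (log2 difference -3.29, SE 0.891, adjusted p = 0.031). It did not pass without any 1 of the 4 libraries (adjusted p = 0.0808 to 0.148). For the sum of the copies the difference was -0.05 (adjusted p = 0.538). The sum was 1823 ± 160 FPKM in PMN-MDSCs and 1820 ± 59.2 in M-MDSCs under vehicle (SD, n = 2 each), with a log2 difference of 0.00 (95% interval -0.16 to 0.16), whereas the median difference of the ribosomal protein genes was -0.69.

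Rpl26 and Rpl30 were low beside an abundant processed copy. Rpl26, which lies near the exit of the peptide tunnel, was listed at 0 to 70.4 FPKM and its copy Gm15772 at 841 to 1831. Rpl30 was listed at 3.12 to 65.3 FPKM and its copy Gm12191 at 589 to 1296, and Rpl34, whose replicates did agree, at 50.3 to 149 beside Rpl34-ps1 at 817 to 1449. Their sums, at 858 to 1867, 609 to 1339 and 875 to 1565 FPKM, fall in the range of the other ribosomal proteins. Copies and members shared 31.92%, 32.34% and 22.14% of the 101-base windows of the member. Rpl30, for which MS-275 gave -2.23 in PMN-MDSCs (adjusted p = 0.0077) and CXD101 -0.71 (adjusted p = 0.29), gave -0.60 (adjusted p = 0.000248) and -0.62 (adjusted p = 0.00032) when summed with its copy. The sum for Rpl26 gave -0.17 (adjusted p = 0.0353) and -0.28 (adjusted p = 0.00531), and that for Rpl34 -0.17 and -0.18, which did not pass. Across all 83 genes, 74 shared at least 1 window of 101 bases with another annotated gene and 35 at least 50% of theirs. Of the 468 genes on the other side 450 were annotated as pseudogenes, and 15 of the 468, for 14 members, had a row of their own in the files. A further limit is that 15 members share a window of 101 bases with the opposite strand of another annotated gene's transcript. Whether reads were counted by strand is not given in the sources used here.

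**Figure D2:**
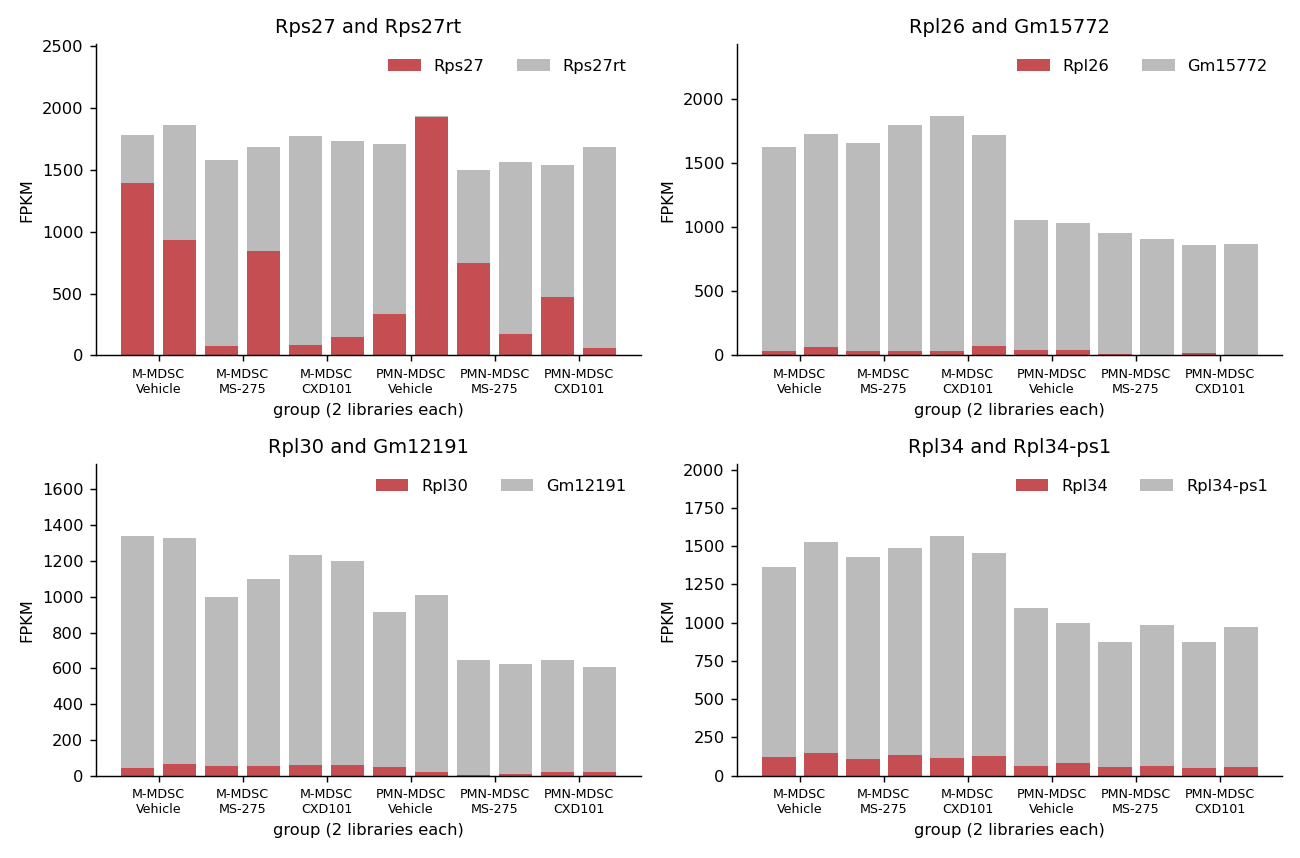
FPKM of Rps27, Rpl26, Rpl30 and Rpl34 in each library, drawn as bars with the near-identical copy stacked on top. The full height of a bar is the sum of both. The Rps27 and Rps27rt parts of the bars mirror each other from library to library, while their sum stays between 1499 and 1936 FPKM.

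The first comparison asked how the ribosomal protein genes differ between the sorted populations without drug. In PMN-MDSCs under vehicle, 76 of the 81 tested genes were lower than in M-MDSCs and 2 were higher (adjusted p under 0.05, limma), against 31.5% of all 11662 tested genes lower and 30.5% higher. With a fold change above 1.5 in addition, the rule for a call used here, 60 were lower and 2 higher, against 16.8% and 17.2% of all genes. The median log2 difference of the 81 genes was -0.69, and that of all genes -0.01. Large (-0.70) and small (-0.67) subunit genes had alike medians. After quantile normalization 30 were called lower and the median was -0.52. The genes that did not pass were Rps27, Rpl26 and Rpl30, which have an abundant copy each. Marker sums differed between the same libraries. The 9 genes of immature myeloid cells summed to 2253 and 2149 FPKM in M-MDSCs under vehicle and to 468 and 320 in PMN-MDSCs, the 4 eosinophil genes to 14.9 and 10.2 and to 62.9 and 66.2, and the 5 macrophage genes to 141 and 143 and to 177 and 165. Single genes went against these sums, with Kit and Cd34 higher and Mrc1 lower in PMN-MDSCs. The part of these markers in the difference was not tested.

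Rpl3, which lines the peptidyl transferase center, had the largest decrease. It stood at 1131 and 1161 FPKM in M-MDSCs and at 574 and 486 in PMN-MDSCs, a log2 difference of -1.12 (SE 0.0771, adjusted p = 5.39e-07). Rpl10a, a protein of the flexible L1 stalk, stood at 1037 and 1137 FPKM against 546 and 475 (-1.09, adjusted p = 1.02e-06). For both genes every PMN-MDSC value lay below every M-MDSC value by far more than replicates differed. Rps2, at the mRNA entry channel, was 2684 and 2817 FPKM in M-MDSCs and 1530 and 1249 in PMN-MDSCs (-0.99, adjusted p = 4.39e-06).

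Genes with well-known roles moved with the rest. The stalk proteins Rplp0, Rplp1 and Rplp2, which recruit elongation factors, differed by -0.70, -0.63 and -0.56. Rpl5 and Rpl11, which bind 5S ribosomal RNA and can restrain Mdm2, differed by -0.81 and -0.72, and Rpl10, which joins the subunit last, by -0.74. In the small subunit, Rpsa (-0.87), also known as a laminin receptor precursor, and Rps6 (-0.87), the target of S6 kinases, had lower values than Rps3 (-0.65), Rps14 (-0.69) and Rps27a (-0.51), which is made as a fusion with ubiquitin. Each of these passed the test by adjusted p. Rplp0, Rplp1 and Rps14 fell under the fold limit without PMN-MDSC replicate 2 (-0.57, -0.53 and -0.50), and Rplp1 also without M-MDSC replicate 2 (-0.54). The smallest difference to pass among the genes without an abundant copy was that of Rps27l, at 410 and 404 FPKM in M-MDSCs and 336 and 361 in PMN-MDSCs (-0.22, adjusted p = 0.0149).

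The 2 genes that were higher in PMN-MDSCs are low paralogs. Rpl3l, the striated muscle paralog of Rpl3, was 1.48 and 0.119 FPKM in M-MDSCs and 4.03 and 4.83 in PMN-MDSCs (1.70, adjusted p = 0.000574). Its replicates in M-MDSCs differed by more than 2-fold, near the lower limit of the values. Rps4l, a transcribed processed pseudogene related to Rps4x and the only member not annotated as protein coding, was 6.57 and 5.37 FPKM in M-MDSCs and 16.9 and 11.4 in PMN-MDSCs (1.10, adjusted p = 0.000528). Neither reached 2% of the summed level of the pair it forms with its parent gene.

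The next comparisons asked what the inhibitors did in M-MDSCs, where most ribosomal protein genes stayed close to vehicle. Both inhibitors were compared with the same 2 vehicle libraries, so their values are given side by side only. Under MS-275, 15 of the 81 genes were lower and 2 higher by adjusted p alone, against 27.3% and 19.2% of all 11078 genes, and by the fold rule 0 were lower and 1 was higher (Rps4l), against 7.32% and 10.1%. The median difference was -0.11, and that of all genes -0.06. At an unadjusted p under 0.05, 24 genes were lower and 3 higher. The share of all genes at an unadjusted p was not counted, so such counts say nothing particular about the members. The 15 lower calls are small and rest on the libraries and the scaling: 1 of 81 was lower without replicate 1 under MS-275 or without replicate 2 under vehicle, and 4 after median-of-ratios scaling.

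Among the genes that passed by adjusted p, decreases under MS-275 included those of Rpl21 (-0.32, adjusted p = 0.00969), Rps27l (-0.27, adjusted p = 0.0159), Rplp1 (-0.21, adjusted p = 0.0407) and Rps6 (-0.17, adjusted p = 0.0396).

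The increases under MS-275 were those of Rps4l and Rps10. Rps4l was 6.57 and 5.37 FPKM under vehicle, 10.03 and 10.8 under MS-275, and 5.65 and 8.07 under CXD101, a difference of 0.71 for MS-275 (adjusted p = 0.00604). Rps10, a protein near the mRNA entry that is ubiquitylated when ribosomes stall, was 1622 and 1729 FPKM under vehicle, 1825 and 1955 under MS-275, and 1798 and 1793 under CXD101 (0.17 for MS-275, adjusted p = 0.0444). For Rps10 both MS-275 values lay above both vehicle values, though only 1.13-fold on average.

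Under CXD101 in M-MDSCs, 2 genes were lower, Rps27 among them, and 0 higher by adjusted p, against 12.2% and 10.9% of all genes. By the fold rule 1 was lower (Rps27, as above) and 0 higher, against 3.0% and 5.14%. At an unadjusted p under 0.05, 3 were lower and 3 higher in limma, with no share of all genes counted. The median difference was -0.01, and that of all genes -0.02. For the 77 genes without discordant replicates, every 95% interval of the CXD101 difference lay within a 1.5-fold change, with a median half-width of 0.14 on the log2 scale. Rpl39, a small protein of the exit tunnel, had the largest value above 0 among these, 0.20 (adjusted p = 0.0556). The summed markers of other myeloid states moved in the same libraries. The 9 genes of immature myeloid cells summed to 2149 and 2253 FPKM under vehicle and to between 4594 and 5607 under either inhibitor, the 4 eosinophil genes to 10.2 and 14.9 and to between 112 and 163, and the 5 macrophage genes to 141 and 143 and to between 69.2 and 130. Single genes of these lists went other ways. Mpo, Elane, Prtn3, Ctsg, Ms4a3, Cd34 and Kit rose, but Mki67 went from 138 and 117 FPKM to between 100 and 115. Top2a overlapped between vehicle and treated libraries. Mrc1 and the C1q genes fell, but Adgre1 rose from 38.9 and 41.5 FPKM to between 42.3 and 58.4. The part of these markers in the result was not tested.

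In PMN-MDSCs both inhibitors lowered many ribosomal protein genes by a modest amount. Under MS-275, 50 of the 81 genes were lower and 0 higher by adjusted p, against 28.5% and 25.3% of all 11184 genes. By the fold rule 11 were lower, against 14.2% of all genes, and 0 were higher, against 14.6%. Under CXD101, 62 were lower and 0 higher by adjusted p, against 23.9% and 21.4%, and 9 were lower and 0 higher by the fold rule, against 9.54% and 11.9%. The share called lower by the fold rule was thus near that of all genes, whereas the share lower by adjusted p alone was above it. At an unadjusted p under 0.05, 2 genes were higher under MS-275 and 0 under CXD101, with no share of all genes counted. The median difference was -0.28 under MS-275 and -0.38 under CXD101, and that of all genes -0.03 in both. Large subunit genes had medians of -0.30 and -0.41 and small subunit genes of -0.24 and -0.33.

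**Figure D3:**
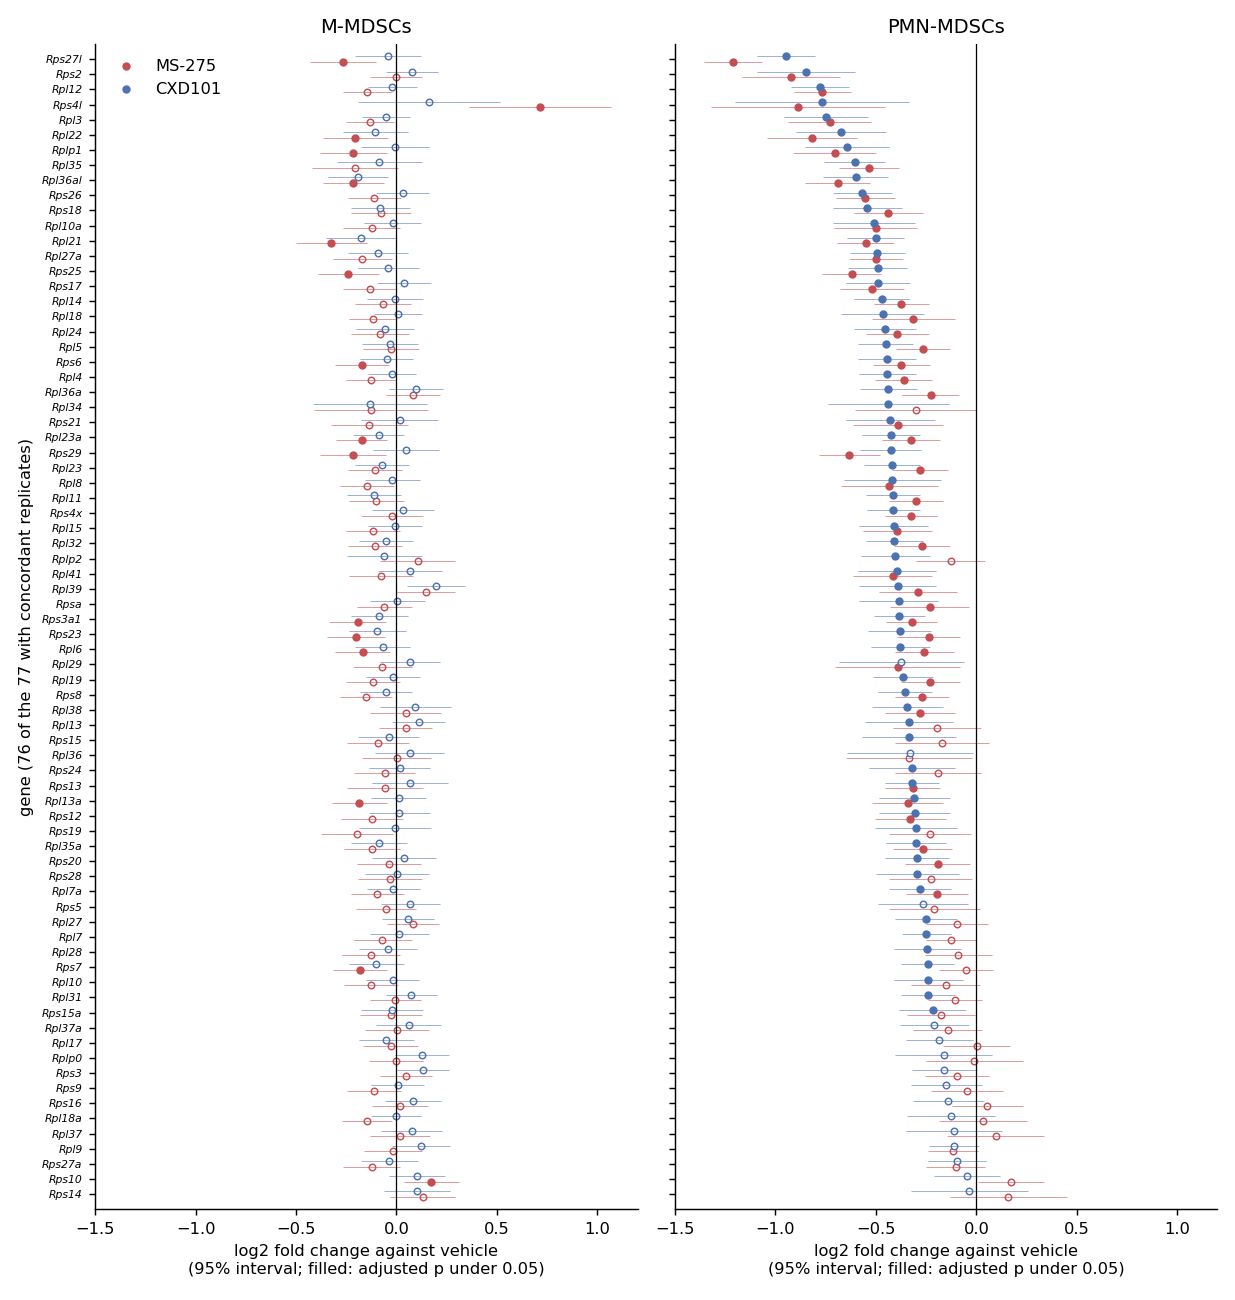
Log2 difference from vehicle with its 95% interval for 76 of the 77 ribosomal protein genes without discordant replicates, under MS-275 and CXD101, in M-MDSCs and PMN-MDSCs, with filled points at an adjusted p under 0.05. Most points lie near 0 in M-MDSCs and left of 0 in PMN-MDSCs, where Rps27l lies farthest to the left at -1.21 under MS-275 and -0.95 under CXD101.

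The size of this decrease depended on scaling, and the FPKM sums of treated PMN-MDSCs were higher. With each library scaled to an equal FPKM sum, the median of all genes moved to -0.35 under MS-275 and -0.34 under CXD101, and 47 and 63 ribosomal protein genes were called lower. The split of all genes then went from 1628 higher and 1586 lower to 1031 and 3648 under MS-275, and from 1327 and 1067 to 801 and 3261 under CXD101. Relative to the median of all genes, the members' median was -0.25 and -0.36 as deposited and -0.29 and -0.39 at equal sums, and with S100a8 and S100a9 left out of the sum it was -0.26 and -0.36. The direction of the members' median was therefore the same under each scaling.

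Of the 77 concordant genes, Rps27l changed most under both drugs. It was 336 and 361 FPKM under vehicle, 147 and 153 under MS-275, and 181 and 179 under CXD101. Every treated library lay far below both vehicle libraries, with differences of -1.21 (SE 0.0617, adjusted p = 7.26e-06) and -0.95 (adjusted p = 3.26e-05). Rps2 was 1530 and 1249 FPKM under vehicle, 699 and 761 under MS-275, and 810 and 728 under CXD101 (-0.92, SE 0.104, adjusted p = 0.000256, and -0.85, adjusted p = 0.000563). The same gene was at 2684 to 2926 FPKM in all 6 M-MDSC libraries, where its differences were -0.00 and 0.08.

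In the large subunit, Rpl12, at the base of the stalk, was 1032 and 986 FPKM under vehicle, 588 and 597 under MS-275, and 568 and 608 under CXD101. Its differences were -0.77 (SE 0.0612, adjusted p = 5.29e-05) and -0.78 (adjusted p = 7.66e-05), and no treated library came near a vehicle one. Rpl3 was 574 and 486 FPKM under vehicle, 303 and 334 under MS-275, and 321 and 307 under CXD101 (-0.73, adjusted p = 0.000378, and -0.75, adjusted p = 0.000504). Rpl22, a protein required for T cell development, was 82.4 and 93.3 FPKM under vehicle, 53.1 and 45.8 under MS-275, and 52.7 and 56.6 under CXD101 (-0.82, adjusted p = 0.00031, and -0.67, adjusted p = 0.00113).

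The stalk proteins did not move together. Rplp1 was 3458 and 2997 FPKM under vehicle, 1862 and 2097 under MS-275, and 2076 and 2045 under CXD101 (-0.70, SE 0.089, adjusted p = 0.000435, and -0.64, adjusted p = 0.000962). Rplp0, which anchors the stalk, was 1233 and 1029 FPKM under vehicle, 1038 and 1206 under MS-275, and 1035 and 980 under CXD101, with differences of -0.01 and -0.16 that did not pass. Rplp2 differed by -0.13 under MS-275, which did not pass, and by -0.40 under CXD101 (adjusted p = 0.0035). So Rplp1 separated from vehicle in every treated library, and Rplp0 overlapped with it. Without vehicle replicate 1 the CXD101 difference of Rplp1 was -0.54, under the fold limit.

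By the fold rule 8 genes were lower under both drugs, namely Rpl3, Rpl12, Rpl22, Rpl36al, Rplp1, Rps2, Rps4l and Rps27l, a count that is not independent because the vehicle libraries are shared. The 3 others under MS-275 were Rpl30, Rps25 (-0.62, adjusted p = 0.000154) and Rps29 (-0.63, adjusted p = 0.000164), and the other under CXD101 was Rpl35 (-0.61, adjusted p = 0.000309). Rps25 is known for its part in internal initiation on viral RNA, and Rps29 is a small zinc-binding protein. Rps29 was 2690 and 2641 FPKM under vehicle, 1645 and 1795 under MS-275, and 1960 and 2007 under CXD101. Without MS-275 replicate 1 its MS-275 difference was -0.57, under the fold limit. In this gene the MS-275 libraries lay lowest and the CXD101 libraries between them and vehicle.

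Differences of other members with well-known roles were smaller. Rpl5 differed by -0.27 under MS-275 (adjusted p = 0.00606) and -0.45 under CXD101 (adjusted p = 0.00068), and Rpl11 by -0.30 and -0.41 (adjusted p = 0.00344 and 0.00104). Rpsa, at -0.23 and -0.39, and Rps6, at -0.37 and -0.45, passed under both drugs. Rpl10 at -0.24 and Rps19, mutated in Diamond-Blackfan anemia, at -0.30 passed under CXD101 alone, with -0.15 and -0.23 under MS-275. For Rps3, Rps27a, Rps14 and Rpl37 neither drug passed. The values of Rps14 were 0.16 under MS-275 and -0.03 under CXD101, and those of Rpl37 0.10 and -0.11. The largest value above 0 among the concordant genes under MS-275 was that of Rps10 (0.17, adjusted p = 0.0722), at 1123 and 1061 FPKM under vehicle, 1168 and 1298 under MS-275, and 1079 and 1036 under CXD101.

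Marker sums also moved in the PMN-MDSC libraries. The 5 macrophage genes summed to 165 and 177 FPKM under vehicle and 82.8 to 97.9 under either inhibitor, with C1qa at 0 in 1 treated library. The 9 genes of immature myeloid cells summed to 320 and 468 under vehicle and 548 to 631 under treatment, and the 4 eosinophil genes to 62.9 and 66.2 under vehicle and 48.2 to 62.5 under treatment. Of the genes of immature myeloid cells, Mpo, Prtn3, Ctsg and Top2a overlapped between vehicle and treated libraries, as did Siglecf of the eosinophil genes. Adgre1 of the macrophage genes overlapped too, at 88.4 and 86.6 FPKM under vehicle and 65.4 to 88.0 under treatment. Ccr3 of the eosinophil genes went against its sum, at 0.366 and 0.264 FPKM under vehicle and 0.494 to 1.49 under treatment. The part of these markers in the decrease of the ribosomal protein genes was not tested, nor was that of the rise of S100a8 and S100a9.

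The inhibitors were also compared directly, as 1 pair at equal dose in each population. In PMN-MDSCs 0 of the 81 genes differed between MS-275 and CXD101 in limma, by adjusted p or by the fold rule. The shares of all genes were 1.17% and 0.805%. At an unadjusted p under 0.05, 10 members were higher and 3 lower under MS-275, with no share of all genes counted. The median difference was 0.07, and that of all genes -0.01. For the 77 concordant genes, all 95% intervals lay within a 1.5-fold change, between -0.55 and 0.48, with a median half-width of 0.165. The intervals bound the difference and do not show that the drugs act alike, since 12 of them exclude 0 before adjustment. The largest differences were those of Rplp2, 0.28 (95% interval 0.10 to 0.45, adjusted p = 0.147), and Rps27l, -0.26 (95% interval -0.41 to -0.12, adjusted p = 0.105).

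In M-MDSCs 2 genes differed by adjusted p, against 13.7% of all genes, and 0 by the fold rule, against 4.4%. Both genes were lower under MS-275, and 1 of them was Rps29 with -0.26 (adjusted p = 0.0474). At an unadjusted p under 0.05, 12 were lower and 1 higher under MS-275, with no share of all genes counted. Rps29 stood at 2730 and 3038 FPKM under MS-275 and at 3508 and 3393 under CXD101. For 76 of the 77 concordant genes the interval lay within a 1.5-fold change, Rps4l being the exception.

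Whether the response differed between the populations was tested as an interaction over all 12 libraries. For MS-275, 24 genes responded more negatively in PMN-MDSCs and 1 more positively by adjusted p, against 15.1% and 15.9% of all genes, and 7 and 0 by the fold rule, against 9.48% and 8.65%. For CXD101 the counts were 51 and 0, against 12% and 12.2%, and 8 and 0 by the fold rule, against 6.59% and 7.31%. The median interaction was -0.20 for MS-275 and -0.35 for CXD101, and that of all genes 0.02 and -0.01. Rps2 (-0.92 for both drugs), Rps27l (-0.94 and -0.91) and Rpl12 (-0.62 and -0.76) were among the genes called for both.

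Over the 77 concordant genes, the MS-275 responses in M-MDSCs and PMN-MDSCs, which share no library, had a Pearson correlation of 0.184 and a Spearman correlation of 0.469, and the CXD101 responses 0.236 and 0.339. These describe genes within the same libraries, not replicates. Genes with CCGGAAG in the promoter window (23) had medians of -0.32 under MS-275 and -0.40 under CXD101 in PMN-MDSCs, and those without it (34) -0.23 and -0.32. Genes with CTTTCC near the start (7) had medians of -0.31 and -0.34, and those without it (50) -0.27 and -0.38.

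Paralogs can take the place of their parent in the ribosome, so their share of the pair was followed. Rps27l made up 16.7% to 18.8% of the sum of Rps27l, Rps27 and Rps27rt in M-MDSCs and 16.4% and 15.7% in PMN-MDSCs under vehicle. It fell to 8.92% and 8.89% in PMN-MDSCs under MS-275 and to 10.5% and 9.60% under CXD101. The treated PMN-MDSC libraries were the only ones with a share this low. Rpl36al, an autosomal retrocopy of the X-linked Rpl36a, made up 39.0% and 38.0% of its pair in M-MDSCs under vehicle. It made up 33.3% to 34.5% in treated M-MDSCs, 41.9% and 41.3% in PMN-MDSCs under vehicle, and 32.7% to 40.7% in treated PMN-MDSCs. Rpl36al was 418 and 424 FPKM in PMN-MDSCs under vehicle, 249 and 273 under MS-275, and 266 and 289 under CXD101 (-0.69, adjusted p = 0.000151, and -0.60, adjusted p = 0.000443). Without CXD101 replicate 1 the second was -0.54, and -0.58 after median-of-ratios scaling, both under the fold limit. Rpl36a differed by -0.23 and -0.44. Rps4l fell from 16.9 and 11.4 FPKM to 7.25 and 6.88 under MS-275 and 8.84 and 6.77 under CXD101 (-0.89, adjusted p = 0.00507, and -0.77, adjusted p = 0.012). The CXD101 difference of Rps4l did not pass without vehicle replicate 1 (-0.51, adjusted p = 0.0509) or CXD101 replicate 2 (-0.60, adjusted p = 0.0813).

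Genes around the ribosome were described by lists, with the same tests. Mitochondrial ribosomal proteins (77 tested) had medians of -0.13 under MS-275 and -0.00 under CXD101 in M-MDSCs, and of -0.50 and -0.41 in PMN-MDSCs, where 32 and 20 were called lower and 1 and 0 higher, against 14.2% and 9.54% of all genes lower and 14.6% and 11.9% higher. The cytosolic to mitochondrial ratio of summed FPKM was 28.8 and 29.2 in M-MDSCs under vehicle and 29.9 to 31.1 in treated M-MDSCs. In PMN-MDSCs it was 24.0 and 23.3 under vehicle and 24.1 to 27.5 under treatment. Genes of ribosome biogenesis and RNA polymerase I (57 tested) had medians of -0.11 and 0.05 in M-MDSCs, where 0 were called lower under either drug and 1 was called higher under MS-275. By adjusted p alone 11 were lower and 3 higher under MS-275, against 27.3% and 19.2% of all genes, and 0 were lower and 5 higher under CXD101, against 12.2% and 10.9%. In PMN-MDSCs their medians were -0.93 and -0.69, and 45 and 38 of the 57 were called lower and 0 higher, against the shares of all genes given above for PMN-MDSCs. The medians of the ribosomal proteins themselves, at -0.28 and -0.38, lay nearer 0, a gap between lists that was not tested.

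Among them, Fbl, the methyltransferase of ribosomal RNA, differed by -1.37 under MS-275 and -1.18 under CXD101 in PMN-MDSCs. Npm1, a chaperone of the nucleolus, differed by -1.20 and -0.95, and Gar1, of the pseudouridylation complex, by -1.60 and -1.08. Polr1b, a core subunit of RNA polymerase I, differed by -1.14 and -0.76, and its activator Ubtf by -0.90 and -0.64. All of these passed the fold rule.

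Translation factors with TOP mRNAs (14) had medians of -0.40 and -0.33 in PMN-MDSCs, and 3 and 2 of them were called lower and 0 higher, against 14.2% and 9.54% of all genes lower. By adjusted p alone 9 and 8 were lower, against 28.5% and 23.9%, and 1 was higher under MS-275, Pabpc1, which binds poly(A) tails, at 0.33 (adjusted p = 0.00488). Eef1g differed by -1.21 and -0.96 and Eef1d by -1.04 and -0.75, whereas Tpt1, at 0.03 and -0.16, did not pass. Of 5 ribosomal genes outside the symbol rule, Gnb2l1 and Rpl22l1 among them, 0 were called under either drug in PMN-MDSCs, and 2 under MS-275 and 1 under CXD101 were lower by adjusted p alone in limma. The regulators (11 tested) did not move one way. Mxd1, an antagonist of Myc, rose by 1.11 under MS-275 and 0.99 under CXD101 in PMN-MDSCs (adjusted p = 4.41e-05 and 0.000121). Myc was higher by 0.97 under MS-275 in M-MDSCs (adjusted p = 2.87e-05) and by 0.47 in PMN-MDSCs (adjusted p = 0.00217). Larp1 fell by 0.65 under MS-275 in PMN-MDSCs (adjusted p = 0.00032) and by 0.57 under CXD101 (adjusted p = 0.000915).

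**Figure D4:**
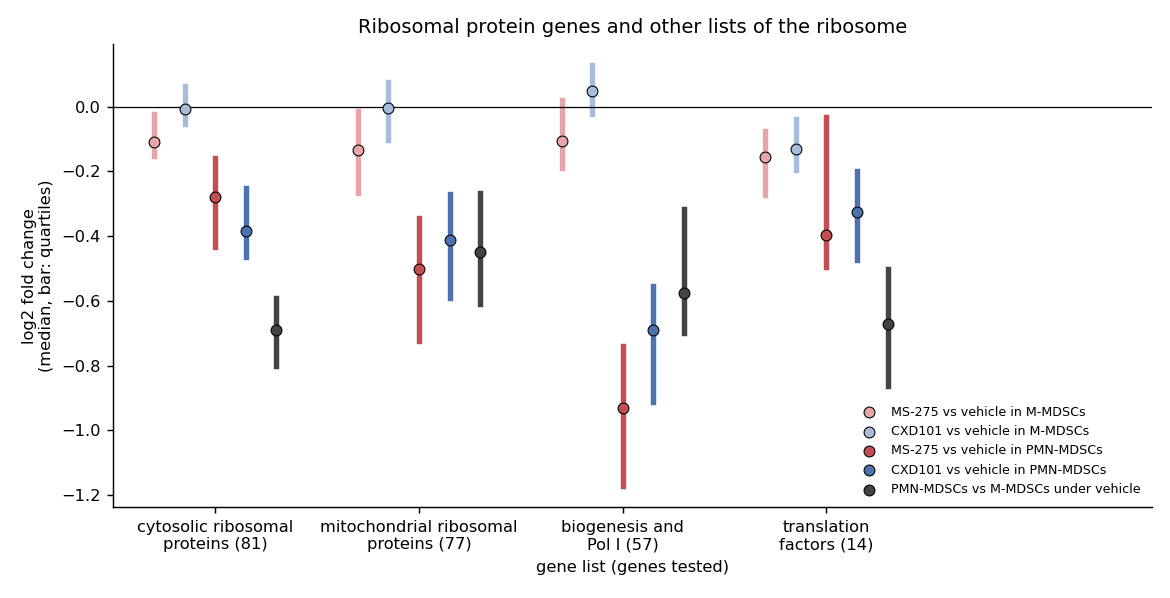
Median log2 difference, with a bar for the quartiles, of the cytosolic and mitochondrial ribosomal proteins, the biogenesis list and the translation factors. The comparisons are each inhibitor against vehicle in each population, and PMN-MDSCs against M-MDSCs under vehicle. The median of all genes tested is not drawn. In PMN-MDSCs under either inhibitor, the biogenesis list lies lowest at -0.93 and -0.69, the mitochondrial ribosomal proteins at -0.50 and -0.41 and the cytosolic ribosomal proteins at -0.28 and -0.38.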

How the data were processed

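RNA of sorted MDSCs was made into stranded poly(A) libraries (TruSeq) and sequenced as single reads of 101 bases. The authors deposited 1 table of FPKM per library, with a gene symbol and a value. Per the submitters' processing notes, TopHat2 2.1.1, Bowtie2 2.2.8, SAMtools 0.1.18 and Cuffdiff 2.2.1 were used with mm10. Annotation, strand setting and treatment of multiply mapped reads are not given in the sources used here, and they decide how reads of near-identical copies are split. The libraries' FPKM sums differ, so values were used as deposited and not rescaled.

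Genes with at least 1 FPKM in at least 2 libraries were tested with limma 3.58.1 in R 4.3.3 on log2(FPKM + 1), with an intensity trend and Benjamini-Hochberg adjustment over all genes tested. Differences on this scale understate those of low genes. A gene was called at an adjusted p under 0.05 and a fold change above 1.5. The 6 libraries of each population formed 1 model, and PMN-MDSCs against M-MDSCs and the interactions used all 12. The fit was tested on simulated data. Named genes were those with replicates over 2-fold apart, the 3 largest increases and decreases per comparison, paralogs with their parents, members with a well-known role and the 3 highest and 3 lowest means. Other members are named where a count was small, after their values were seen. The members, lists and rules were chosen with earlier results of these data known. Alternatives covered pseudocount, filter, scaling, thresholds, replicate block, model and each library left out, and summing a member with its copy was added after seeing the data. Shared windows of 101 bases were counted over GENCODE M21 transcripts of GRCm38. Python 3.11.15 was used for the rest. Rack1 was measured under its older symbol Gnb2l1, and Utp4 was not analysed here. Some genes that enter the counts and medians are not reported here by name, and 1 of them is left out of the plot of responses.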

Additional observations from a re-analysis of the deposited data

Results flagged for a closer look

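The response to an inhibitor differed between PMN-MDSCs and M-MDSCs for 15 results, by the limma interaction test over all 12 libraries with a difference above 1.5-fold. Each was more negative in PMN-MDSCs, and the libraries of the vehicle groups enter both drugs' tests. For MS-275, 7 of the 81 tested members were called more negative, against 9.48% of all genes. For CXD101 there were 8 of 81, against 6.59%. In the positive direction 0 were called for either drug, against 8.65% and 7.31% of all genes. By this rule the share of members called more negative was thus near that of all genes.

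For MS-275 the log2 interaction was -2.25 for Rpl30 (adjusted p = 0.0231), -1.60 for Rps4l (adjusted p = 0.00168), -0.94 for Rps27l (adjusted p = 9.35e-05), -0.92 for Rps2 (adjusted p = 0.000533), -0.62 for Rpl12 (adjusted p = 0.000248), -0.61 for Rpl22 (adjusted p = 0.00489) and -0.60 for Rpl3 (adjusted p = 0.00245). For Rpl30 it was -0.25 (adjusted p = 0.0661) when summed with the copy Gm12191, and the value of Rpl30 alone did not pass without M-MDSC vehicle replicate 1 (-1.96), either M-MDSC MS-275 library (-2.28 and -2.22), PMN-MDSC vehicle replicate 1 (-1.64) or PMN-MDSC MS-275 replicate 1 (-1.47). Rpl3 fell under the fold limit without M-MDSC vehicle replicate 1 (-0.58), PMN-MDSC vehicle replicate 1 (-0.48) or PMN-MDSC MS-275 replicate 1 (-0.53).

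For CXD101 it was -0.93 for Rps4l (adjusted p = 0.0312), -0.92 for Rps2 (adjusted p = 0.000756), -0.91 for Rps27l (adjusted p = 0.000201), -0.76 for Rpl12 (adjusted p = 0.000139), -0.70 for Rpl3 (adjusted p = 0.00143), -0.64 for Rplp1 (adjusted p = 0.00462), -0.60 for Rps26 (adjusted p = 0.000723) and -0.59 for Rpl39 (adjusted p = 0.00382). Rps4l did not pass without M-MDSC vehicle replicate 2, M-MDSC CXD101 replicate 2, PMN-MDSC vehicle replicate 1 or PMN-MDSC CXD101 replicate 2 (adjusted p = 0.099 to 0.109). Rpl3 (-0.58) and Rplp1 (-0.53) fell under the fold limit without PMN-MDSC vehicle replicate 1, and Rplp1 also without M-MDSC vehicle replicate 1 (-0.54). Rpl39 did so without M-MDSC vehicle replicate 1 (-0.58), M-MDSC CXD101 replicate 1 (-0.54), PMN-MDSC vehicle replicate 2 (-0.51) or PMN-MDSC CXD101 replicate 1 (-0.56). After quantile normalization the value of Rplp1 was -0.15 (adjusted p = 0.555), and after median-of-ratios scaling that of Rpl39 was -0.58. The causes of these changes were not tested.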

How the results depend on the processing

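Of 130 counts of called members under other settings, 106 stayed within 1.5 times the reported count. Direction was checked only for the called members that are named, of which 0 changed sign. The members' median for CXD101 in M-MDSCs, close to 0, did change sign. It was -0.007 as deposited and 0.013 when scaled to an equal sum without S100a8 and S100a9. By adjusted p alone, the counts of members higher or lower were 17 (MS-275) and 2 (CXD101) in M-MDSCs, 2 between the drugs there, 50 and 62 in PMN-MDSCs, and 25 and 51 for the interactions. With a fold change above 2 they were 0 for MS-275 in M-MDSCs, 2 and 0 in PMN-MDSCs, 4 for PMN-MDSCs against M-MDSCs, and 2 and 0 for the interactions. With libraries scaled to an equal FPKM sum, they were 47 and 63 in PMN-MDSCs and 39 and 62 for the interactions. This scaling moved all genes too. For the MS-275 interaction, all genes went from 1009 higher and 1106 lower to 390 and 3181. For the CXD101 interaction, they went from 852 and 768 to 382 and 2570. Quantile normalization gave 32 for PMN-MDSCs against M-MDSCs and 11 for the MS-275 interaction. The 1 call of CXD101 in M-MDSCs became 0 without discordant members, without the filter, without the intensity trend, with all 12 libraries in 1 model, and with a member summed with its copy.

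With each library left out in turn, counts ranged from 1 to 2 for MS-275 and 0 to 1 for CXD101 in M-MDSCs, 0 to 1 between the drugs there, 10 to 15 and 7 to 11 in PMN-MDSCs, 0 to 0 between the drugs there, 55 to 63 for PMN-MDSCs against M-MDSCs, and 5 to 7 and 5 to 9 for the interactions. The 5 for CXD101 came without PMN-MDSC vehicle replicate 1. In M-MDSCs, 2 for MS-275 came without vehicle replicate 1 or MS-275 replicate 2, 0 for CXD101 without vehicle replicate 2 or either CXD101 library, and 1 between the drugs without MS-275 replicate 1 or CXD101 replicate 2. A lone library left in a group was assumed to vary like the others.

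The deviations of libraries with the same number from their group means were weakly correlated across genes (-0.14 to 0.18). These correlations cannot show whether such libraries came from the same mouse, which the labels do not say. The tests between the populations treated all libraries as independent. With the replicate block, the counts were 1 and 1 in M-MDSCs, 12 and 10 in PMN-MDSCs, 62 between the populations and 7 and 8 for the interactions, and the 54 calls of named members tested with it stayed on the same side of the threshold. By adjusted p alone, the block left 6 members lower under MS-275 in M-MDSCs. With 2 libraries a group, small differences such as those in M-MDSCs are near the limit of the design, and the causes of the changes listed were not tested.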
